A study of Homo sapiens with 4 samples.

Results

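RAD21 binding was examined at the zinc finger genes of chromosome 19, taken as all protein-coding genes of that chromosome in GENCODE version 44 whose names start with ZNF. The rule gave 249 of 19970 protein-coding genes of chromosomes 1 to 22 and X, and 233 of the 249 lay in 12 clusters. The choice rests on names, and 3 of the genes are readthrough genes that join a neighbour, such as ZNF625-ZNF20. Zinc finger (ZNF) genes are named for the finger-shaped, zinc-binding modules of their proteins. Most of the chromosome 19 genes encode a KRAB domain followed by a row of C2H2 fingers that read DNA, and the row of fingers is commonly encoded by a single long last exon. KRAB proteins recruit the corepressor TRIM28 and, through it, the histone H3 lysine 9 methyltransferase SETDB1, and many of them silence transposable elements. The genes arose by tandem duplication and stand side by side in arrays. Cohesin is a ring complex that extrudes chromatin loops and halts at sites bound by CTCF, so that RAD21, its kleisin subunit, gathers at these sites in ChIP-seq.

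The values come from 1 RAD21 ChIP-seq library of untreated wild-type HCT116 cells, a human colon carcinoma line, with RAD21 left untagged. The library pools many cells, so that the share of cells with RAD21 at a site and the amount per cell cannot be told apart. The experiment held 3 further libraries that were not analysed here. These were from HCT116_RAD21_AID, 1 cell clone in which RAD21 carries an mAID degron and OsTIR1 is expressed, and they comprised RAD21 ChIP without auxins, RAD21 ChIP after 6 h with IAA and α-NAA at 500 µM each, and an Input of the treated cells. With 1 library there was no spread between replicates, so no test was made, and the 95% intervals given (Wilson for shares, exact Poisson for rates) cover counting error only. The list held 56853 peaks with a q-value of at most 0.05. Each has a summit, the position of its highest signal, and a fold enrichment, which is the ratio of ChIP fragments to the local background with 1 added to both. The number of fragments and the background were recovered from the fold enrichment and the p-value. The lowest background was 5.90 fragments, called the floor below. A summit was counted for a gene when it lay in the gene or within 5 kb of it. On either side of that limit, a summit of 3.25-fold lay 4844 bp from ZNF155 and 1 of 10.7-fold lay 5018 bp from ZNF525.

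The sequences under the summits showed a repeated site, which the choice of genes did not use and which also lay elsewhere in the genome. Of the 209 distinct summits at the zinc finger genes, 23 (11%, 7.45 to 16) had an exact CTCF consensus wholly within 50 bp. The share was 13.5% (12 to 15.1) over the 1890 other summits of chromosome 19, 11.4% over the whole list, and 0 of 418 control windows 5 kb to either side of the zinc finger gene summits. When the 60 bases around these 23 sites were read on the strand of the consensus, 11 of them were nearly the same sequence, also outside the 12 bases of the consensus. Of these, 8 are shown from the GRCh38 reference, with the consensus in capitals, so that their likeness can be seen.
ZNF556 (chr19:2872344-2872403, minus strand): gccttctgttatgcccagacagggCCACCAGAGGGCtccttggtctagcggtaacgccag
ZNF93 (chr19:19930576-19930635, minus strand): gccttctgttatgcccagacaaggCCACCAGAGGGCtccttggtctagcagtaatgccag
ZNF93 (chr19:19959361-19959420, minus strand): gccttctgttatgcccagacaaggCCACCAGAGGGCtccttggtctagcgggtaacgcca
ZNF699 (chr19:9312211-9312270, plus strand): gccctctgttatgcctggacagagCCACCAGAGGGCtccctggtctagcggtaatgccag
ZNF566 (chr19:36493277-36493336, minus strand): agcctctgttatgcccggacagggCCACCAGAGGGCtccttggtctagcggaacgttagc
ZNF582 and ZNF583 (chr19:56396315-56396374, minus strand): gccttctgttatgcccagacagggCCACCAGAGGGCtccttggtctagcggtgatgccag
ZNF677 (chr19:53257873-53257932, plus strand): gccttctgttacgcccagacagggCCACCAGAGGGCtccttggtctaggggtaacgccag
ZNF441 (chr19:11771673-11771732, plus strand): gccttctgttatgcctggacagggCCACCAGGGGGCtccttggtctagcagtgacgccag

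Over the 48 bases outside the consensus, the sites at ZNF699, ZNF566, ZNF507, ZNF845, ZNF383, ZNF582, ZNF441, ZNF677 and both sites of ZNF93 were 75% to 95.8% identical to that of ZNF556. The other 12 reached at most 43.8%. Among all 11012 exact consensus sites of chromosomes 1 to 22 and X, 266 were at least 70% identical to the ZNF556 site in these 48 bases and only 10 lay between 50% and 70%, so few sites were intermediate. This comparison was added after the sequences were seen. All pairs among the 11 sites were at least 70.8% identical. The ZNF556 site was the reference, chosen among the 23 sites under summits of these genes for the highest total identity to those alike. The share at the zinc finger genes is raised by that choice. Of the 38 consensus sites in or within 5 kb of the zinc finger genes, 11 (28.9%, 17 to 44.8) belonged to the group. The share was 28 of 417 (6.71%, 4.69 to 9.53) on the rest of chromosome 19 and 227 of 10557 (2.15%, 1.89 to 2.44) on the other chromosomes. Most sites of the group thus lay away from the zinc finger genes. Exact sites of any kind numbered 4.03 per Mb at the zinc finger genes and 9.87 per Mb at other genes of chromosome 19. They numbered 4.38 per Mb over all protein-coding genes and 3.53 per Mb at the ZNF genes of other chromosomes. The share thus also depends on the density of exact sites, which was low only beside the other genes of the chromosome.

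Nearly every site of this group lay in a RAD21 peak. It was so for 11 of 11 at the zinc finger genes, 28 of 28 on the rest of chromosome 19 and 220 of 227 (96.9%, 93.8 to 98.5) on the other chromosomes. The 11 at the zinc finger genes were first found under summits, so their share in a peak is no independent result. Consensus sites outside the group were in a peak for 15 of 27 (55.6%, 37.3 to 72.4) at the zinc finger genes, for 265 of 389 (68.1%, 63.3 to 72.6) on the rest of chromosome 19 and for 64% (63.1 to 65) of 10330 on the other chromosomes. The fold enrichment of the 11 summits ran from 6.38 at ZNF677 to 25.4 at ZNF566, with a median of 12.6. The median at the other 12 was 9.14.

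The remaining exact sites were unlike that of ZNF556. ZNF846, the last gene of the second cluster, had a summit of 21.9-fold. A summit of 22.2-fold lay between ZNF548 and ZNF17, and 1 of 23.5-fold lay in ZNF536. Their sites are shown because they are the highest outside the group.
ZNF846 (chr19:9796328-9796387, minus strand): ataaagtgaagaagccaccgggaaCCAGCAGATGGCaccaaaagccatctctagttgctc
ZNF548 and ZNF17 (chr19:57406700-57406759, plus strand): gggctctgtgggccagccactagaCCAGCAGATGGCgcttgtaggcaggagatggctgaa
ZNF536 (chr19:30666469-30666528, plus strand): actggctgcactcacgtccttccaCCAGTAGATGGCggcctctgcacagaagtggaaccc

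A pair of sites stood at the starts of 2 genes of the last cluster and differed at 1 of 60 bases. ZNF814 had a summit of 7.39-fold and ZNF587B had 1 of 3.91-fold. Among the 218 zinc finger genes with a RefSeq promoter of 250 bases before to 50 after the start (GRCh38.p14), these 2 (0.917%, 0.252 to 3.28) were the ones with an exact consensus. Over all 35116 RefSeq promoters the share was 0.47% (0.404 to 0.547).
ZNF814 (chr19:57889019-57889078, plus strand): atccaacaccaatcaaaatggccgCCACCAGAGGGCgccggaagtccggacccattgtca
ZNF587B (chr19:57830253-57830312, minus strand): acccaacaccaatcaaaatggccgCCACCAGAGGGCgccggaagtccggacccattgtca

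With 1 mismatch allowed, 65 summits (31.1%, 25.2 to 37.7) had the consensus within 50 bp, against 41.2% (39 to 43.5) of the other summits of chromosome 19. Many of the highest summits at the zinc finger genes fell here, among them those at ZNF20 (29.7-fold), ZNF491 (25.2-fold), ZNF114 (30.1-fold) and ZNF536 (33.9-fold). The sites at ZNF20 and ZNF491 were alike at 41 of 60 bases. Capitals mark the 12 bases that match with 1 mismatch.
ZNF20 (chr19:12141300-12141359, minus strand): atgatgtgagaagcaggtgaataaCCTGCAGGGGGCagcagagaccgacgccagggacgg
ZNF491 (chr19:11797567-11797626, plus strand): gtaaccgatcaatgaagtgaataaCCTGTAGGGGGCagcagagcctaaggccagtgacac
ZNF114 (chr19:48291395-48291454, minus strand): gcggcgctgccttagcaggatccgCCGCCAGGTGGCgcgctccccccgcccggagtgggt
ZNF536 (chr19:30683112-30683171, plus strand): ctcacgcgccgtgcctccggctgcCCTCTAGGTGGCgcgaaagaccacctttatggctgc

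At least 1 RAD21 summit was found at 152 of the 249 zinc finger genes (61%, 54.9 to 66.9), a smaller share than the 75.5% of all protein-coding genes. The share was 74.8% (72.3 to 77.2) among the 1227 other protein-coding genes of chromosome 19 and 68.2% (62.4 to 73.5) among the 267 ZNF genes of other chromosomes. Counted per length of gene and 5 kb, the zinc finger genes had 22.2 summits per Mb (19.3 to 25.4). This was near the 23.2 per Mb over all protein-coding genes and the 23.8 per Mb (21.5 to 26.3) at the ZNF genes of other chromosomes. The other genes of chromosome 19 had 45.1 per Mb (42.8 to 47.4). Of the 249 genes, 97 had no summit, 95 had 1, 41 had 2 and 16 had 3 or more. Because the genes are close together, 29 of the 209 summits were counted for more than 1 of them. The zinc finger genes were not shorter than the other genes of the chromosome, with a median length of 26.1 kb against 13.8 kb. The median was 27.5 kb over all protein-coding genes and 27.3 kb for the ZNF genes of other chromosomes. Between 20 and 40 kb, 55 of 102 zinc finger genes (53.9%, 44.3 to 63.3) and 214 of 260 other genes (82.3%, 77.2 to 86.5) had a summit. The ZNF genes of other chromosomes had 64.1% (53 to 73.9), an interval that overlaps that of chromosome 19, and all protein-coding genes 76%. From 10 to 20 kb the zinc finger genes had 62.3% (50.5 to 72.8) and the other genes of the chromosome 77.4% (72.5 to 81.6). The ZNF genes of other chromosomes had 56.7% (44.1 to 68.4) there. Below 10 kb the shares were 60% (40.7 to 76.6) for the zinc finger genes and 61.3% (56.7 to 65.7) for the other genes of the chromosome. The ZNF genes of other chromosomes had 66.7% (49.6 to 80.2) below 10 kb.

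The summits were lower than those elsewhere on the chromosome, and at the level of the ZNF genes of other chromosomes. The median fold enrichment at the zinc finger genes was 4.46 (quartiles 3.07 and 8.84, range 2.1 to 33.9), against 5.8 at the other summits of chromosome 19 and 4.49 (quartiles 3.16 and 8.26) at the ZNF genes of other chromosomes. At least 10-fold enrichment was reached by 22.5% of the 209 summits, by 31.3% of the 1890 others and by 20% of those at the ZNF genes of other chromosomes. The background was 2 times the floor or more, as in sequence over-represented in Input, at 2.39% of the zinc finger gene summits and 6.56% of the others. The 100 bases at the summit occurred elsewhere in the assembly for 4 of the 209.

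Each gene was then divided into the 5′ end (within 1 kb of the start of its canonical transcript), the last exon of that transcript, the rest of the body, and the 5 kb before and after it. Binding was dense at the 5′ ends, sparse in the bodies and nearly missing from the last exons. Of the 209 summits, 94 were at 5′ ends, against 321 of 1461 at the other genes of the chromosome. The 5′ end summits were the lowest in each set, so the medians over all zones compare unlike mixes. By zone, the median was 6.88-fold against 6.09-fold in bodies and 11.2-fold against 7.96-fold before the gene. It was lower at 5′ ends (3.4 against 3.62), in last exons (4.52 against 7.1) and after the gene (4.51 against 9.27).

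A summit at the 5′ end was found at 92 zinc finger genes (36.9%, 31.2 to 43.1), near the 34.3% of all protein-coding genes. The other genes of chromosome 19 had one in 25.7% (23.3 to 28.2) and the ZNF genes of other chromosomes in 43.1% (37.3 to 49.1). The 94 distinct summits gave 193.8 per Mb (156.6 to 237.2), against 141 per Mb (126 to 157.3) at the other genes of the chromosome, 244.3 per Mb (203.8 to 290.5) at the ZNF genes of other chromosomes and 183.5 per Mb over all genes. Their median was 3.4-fold, with a median of 27 fragments, and 4 of them reached 10-fold. The 5′ end summits were about as low in the other sets, with medians of 3.62-fold at the other genes of the chromosome, 3.54-fold at the ZNF genes of other chromosomes and 3.62-fold over all genes. The exact consensus was present at 2 of the 94 and the consensus with 1 mismatch at 11.

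The 5′ summits lay just inside the genes. Over 96 pairs of a gene and a summit the median position was 179 bp after the start, 69 were after it and 50 were within 250 bp of it. In bins of 500 bp, the first bin after the start held 62 summits, or 498 per Mb (381.8 to 638.4), and the last bin before it held 19. In the first bin the other genes of chromosome 19 had 208.6 per Mb (174.1 to 248.1) and all protein-coding genes 310.2 per Mb (299.3 to 321.3). The ZNF genes of other chromosomes had 419.5 per Mb (316.9 to 544.7), an interval that overlaps that of chromosome 19. Beyond 1 kb the sides were unequal. The zinc finger genes had 29 pairs from 1 to 5 kb before the start (29.1 per Mb, 19.5 to 41.8) and 10 from 1 to 5 kb after it (10 per Mb, 4.81 to 18.5). The other genes of the chromosome had 254 and 206.

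**Figure D1:**
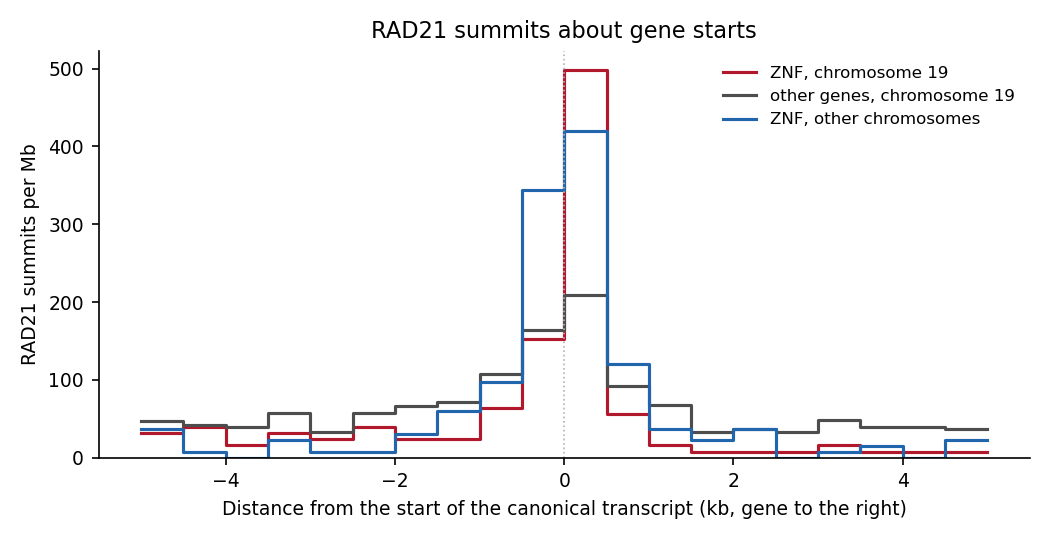
RAD21 summits per Mb, counted for each gene apart, in bins of 500 bp about the start of the canonical transcript, with the gene to the right of 0, for the same 3 sets of genes. The line of the zinc finger genes of chromosome 19 reaches 498 per Mb in the first bin after the start and stays between 8.03 and 16.1 per Mb from 1 kb on.

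The highest summits counted at a 5′ end were not at the start itself. Those of ZNF20 (29.7-fold, 204 fragments), ZNF491 (25.2-fold, 173 fragments), ZNF763 (13.9-fold, 95 fragments) and ZNF274 (9.24-fold, 87 fragments) lay 958, 904, 930 and 955 bp before it. That of ZNF616 (18.1-fold, 154 fragments) lay 547 bp after it. Within 500 bp of the start, 79 of the genes still had a summit. ZNF274 encodes a zinc finger protein known to bind the 3′ ends of other ZNF genes and to bring SETDB1 there.

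Genes with and without a 5′ summit were much alike in what else could be read. The median GC content of the promoter was 61.3% for the 83 genes with a summit and a RefSeq promoter and 59.3% for the 135 without a summit. The start of a gene on the opposite strand lay within 1 kb for 3 of 92 (3.26%, 1.12 to 9.15) and for 10 of 157 (6.37%, 3.5 to 11.3).

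The 5 kb before the genes held 29 summits, or 34.1 per Mb (22.8 to 48.9), near the 35.2 per Mb (33.6 to 36.8) over all protein-coding genes. The rate was 51.7 per Mb (43.4 to 61) at the other genes of chromosome 19. It was 26 per Mb (17.1 to 37.8) at the ZNF genes of other chromosomes. The median of the 29 summits was 11.2-fold, and 15 of them (51.7%) reached 10-fold. Summits before the gene were also higher than those at the 5′ end in the other sets. The median was 7.96-fold, with 43.9% at 10-fold or more, at the other genes of chromosome 19. It was 6.23-fold, with 25.9%, at the ZNF genes of other chromosomes, and 7.14-fold, with 37.7%, over all genes. The exact consensus was at 7 of the 29 (24.1%, 12.2 to 42.1), and the consensus with 1 mismatch at 17 (58.6%, 40.7 to 74.5). The highest were at ZNF576 (30.8-fold, 228 fragments, 1764 bp before the start) and ZNF566 (25.4-fold, 174 fragments, 3723 bp before the start). In the 5 kb after the genes there were 16 summits, or 19 per Mb (10.9 to 30.9), with a median of 4.51-fold. The other genes of chromosome 19 had 55.4 per Mb (46 to 66.1) with a median of 9.27-fold. The ZNF genes of other chromosomes had 34.5 per Mb (24.7 to 46.8) and 5.07-fold, and all genes 37.3 per Mb and 7.68-fold. The highest of the 16 was that of ZNF114 (30.1-fold, 212 fragments).

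**Figure D2:**
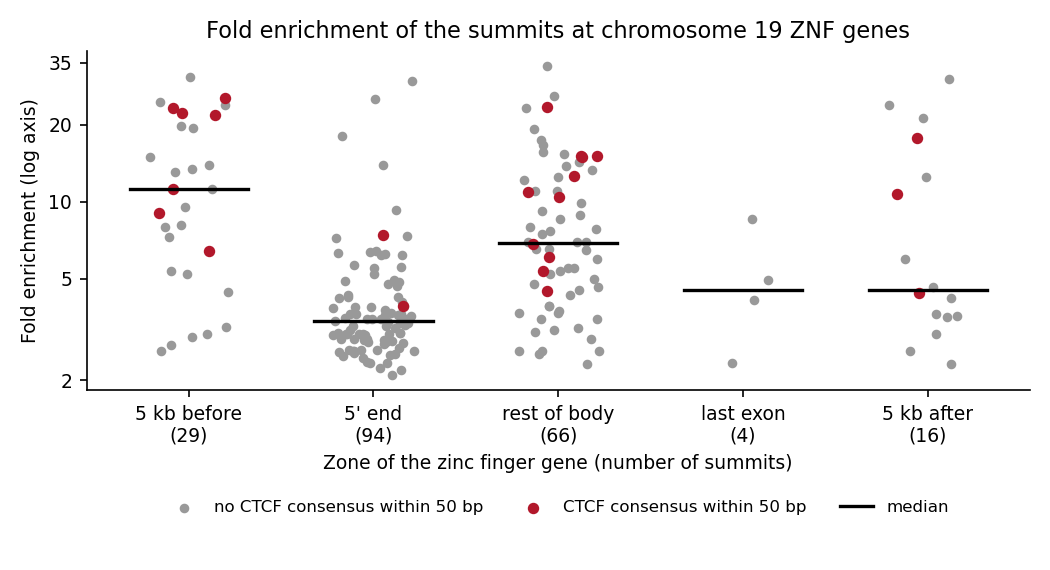
Fold enrichment (log axis) of the 209 summits at the zinc finger genes by zone, 1 point per summit, with the median as a bar and summits with an exact CTCF consensus within 50 bp in red. The 5′ end summits gather about their median of 3.4-fold, while those in the 5 kb before the gene spread about 11.2-fold.

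The last exon, where the fingers are encoded, held a summit in 5 of the 249 genes (2.01%, 0.861 to 4.61), against 6.55% of all protein-coding genes with more than 1 exon. The share was 5.21% (4.08 to 6.62) among the other genes of chromosome 19 and 9.06% (6.16 to 13.1) among the ZNF genes of other chromosomes, although the last exons of the chromosome 19 zinc finger genes were the longest, with a median of 3338 bp against 700 bp and 2887 bp. Counted per length, 4 distinct summits in 0.922 Mb gave 4.34 per Mb (1.18 to 11.1). The rates were 44 per Mb (33.6 to 56.6) and 25.7 per Mb (16.6 to 37.9) in the other sets. The coding part held 2 summits in 0.377 Mb (5.31 per Mb, 0.642 to 19.2), and that of the other genes of the chromosome 18 in 0.33 Mb (54.6 per Mb, 32.4 to 86.3). The untranslated part held 2 in 0.545 Mb (3.67 per Mb, 0.445 to 13.3).

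Base composition moved with this result. The last exons of the zinc finger genes had a GC content of 41.2%, against 54.5% in the other genes of the chromosome, and consensus sites were sparse in them (1.09 against 18.3 per Mb). Among last exons below 45% GC, the zinc finger genes had 1 summit in 0.819 Mb (1.22 per Mb, 0.0309 to 6.8). The other genes of chromosome 19 had 1 in 0.188 Mb (5.33 per Mb, 0.135 to 29.7), an interval that overlaps, and all protein-coding genes had 335 in 23.9 Mb (14 per Mb, 12.6 to 15.6). Between 45% and 55% GC, the 18 zinc finger genes had 35.8 per Mb (4.34 to 129.3), on 2 summits, and the other genes of the chromosome 32 per Mb (18.3 to 51.9). At 55% GC and above, 23 zinc finger genes had 42.3 per Mb (5.12 to 152.8), also on 2 summits. The other genes of the chromosome had 66.6 per Mb (49.1 to 88.3) there, and all protein-coding genes 90.8 per Mb (82.9 to 99.3). The part of base composition in the low rate was not tested further. Of the 100-mers of these last exons, 1.23% occurred elsewhere, against 1.44% in the other genes of the chromosome, and the part of copied sequence in the rate was not tested.

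The 5 last exons with a summit were named. ZNF473, whose protein acts in the processing of histone mRNA, had 1 of 8.52-fold and 64 fragments. ZNF442 had 1 of 4.92-fold and 35 fragments, and ZNF575 had 1 of 4.12-fold and 46 fragments. The summit of ZNF580 was 2.88-fold with 21 fragments, and it also lay 808 bp before the start of its neighbour ZNF581. ZNF875, also known as HKR1, had the weakest, of 2.33-fold with 19 fragments. The summits of ZNF875, ZNF575 and ZNF580 were in coding sequence. Taking in the last exons of all coding transcripts added ZNF765. The 60 bases around the summits of ZNF875 and ZNF575 are shown in GRCh38 on the strand of the gene, as examples of coding sequence under a summit.
ZNF875 (chr19:37362993-37363052, plus strand): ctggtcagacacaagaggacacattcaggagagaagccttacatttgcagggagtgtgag
ZNF575 (chr19:43535585-43535644, plus strand): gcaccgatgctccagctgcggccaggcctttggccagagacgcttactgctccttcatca

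The rest of the gene bodies held 66 summits in 6.32 Mb, or 10.4 per Mb (8.08 to 13.3). The rate was 34.3 per Mb (32 to 36.7) in the other genes of chromosome 19, 13.2 per Mb (11.3 to 15.4) in the ZNF genes of other chromosomes and 16.9 per Mb over all genes. Summits in the bodies were not low, with a median of 6.88-fold against 6.09-fold in the other genes of the chromosome. GC content was 43% in these bodies and 50.9% in those of the other genes.

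ZNF536, which is known to restrain neuronal differentiation, held 11 of the 66. It spans 488.7 kb outside the clusters and is the longest of the genes. Its 12 summits included the highest of all (33.9-fold, 233 fragments), and 7 of them lay in its last part, from 30650160 to 30696716. Before these was a stretch of 243.5 kb without a summit. Next in number came ZNF875, ZNF580 and ZNF581 with 5 each. In ZNF875 all 5 were low, from 2.33-fold to 5.22-fold, and ZNF580 and ZNF581, which overlap, shared the same 5, from 2.88-fold to 24.5-fold.

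The longest genes with no summit in the gene or 5 kb were ZNF675 (161.6 kb), ZNF208 (78 kb), ZNF529 (70.5 kb), ZNF432 (64.4 kb) and ZNF345 (62.7 kb). All lay in clusters. Of the long genes, ZNF536 and these 5 were thus at the ends of the range.

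Genes picked for what is known of them varied as widely. ZNF91, which represses SVA elements, had a summit of 2.35-fold with 28 fragments 204 bp after its start and 1 of 3.67-fold with 27 fragments near its far end. ZNF93, which represses LINE-1 elements, had 2 summits of 15.1-fold (103 fragments) and 15-fold (156 fragments) in its body, both on the repeated consensus site shown above. ZNF808, needed for pancreas development, had 1 of 5.65-fold with 38 fragments at its start. ZNF154, often methylated in tumours, had 1 of 2.9-fold with 19 fragments after its end. The imprinted ZNF331 and ZNF382, described as a tumour suppressor, had none.

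Genes that act with the KRAB proteins, or belong to the same kind under other names, were counted beside them. Of 13 genes for corepressors and H3 lysine 9 methylation, 8 had a summit, 2 of them at the 5′ end and 0 in the last exon, where the shares over all protein-coding genes were 75.5%, 34.3% and 6.55%. With so few genes, these counts set nothing apart. TRIM28 itself had 2, the higher of 3.74-fold, and SETDB1 had 1 of 5.87-fold. Of 15 further zinc finger genes of chromosome 19 named ZFP, ZSCAN, ZIM or PEG3, 10 had a summit, 4 at the 5′ end and 0 in the last exon.

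Clusters were formed from at least 5 zinc finger genes with at most 300 kb between neighbours. The 12 clusters covered 13 Mb with 300 summits, 175 of them counted for a zinc finger gene. Their rate was 23.1 per Mb (20.5 to 25.8), against 39.6 per Mb (37.8 to 41.5) on the rest of chromosome 19, with nearly equal gene density (24.5 and 25.5 protein-coding genes per Mb). Chromosomes 1 to 22 and X together had 19.4 per Mb (19.2 to 19.5), with 6.86 protein-coding genes per Mb and a median of 5.63-fold. The clusters were thus sparse beside the rest of chromosome 19, but not beside the genome. The median distance between neighbouring summits was 24.4 kb inside and 13.5 kb outside, and the median fold enrichment was 4.64 and 5.94. A summit was found at 140 of the 233 genes in clusters (60.1%) and at 12 of the 16 outside them (75%, 50.5 to 89.8). Exact consensus sites were also sparser in the clusters, with 4.31 against 8.79 per Mb. The share of these sites in a peak was much the same, at 67.9% (54.8 to 78.6) inside and 70.4% (65.8 to 74.7) outside.

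**Figure D3:**
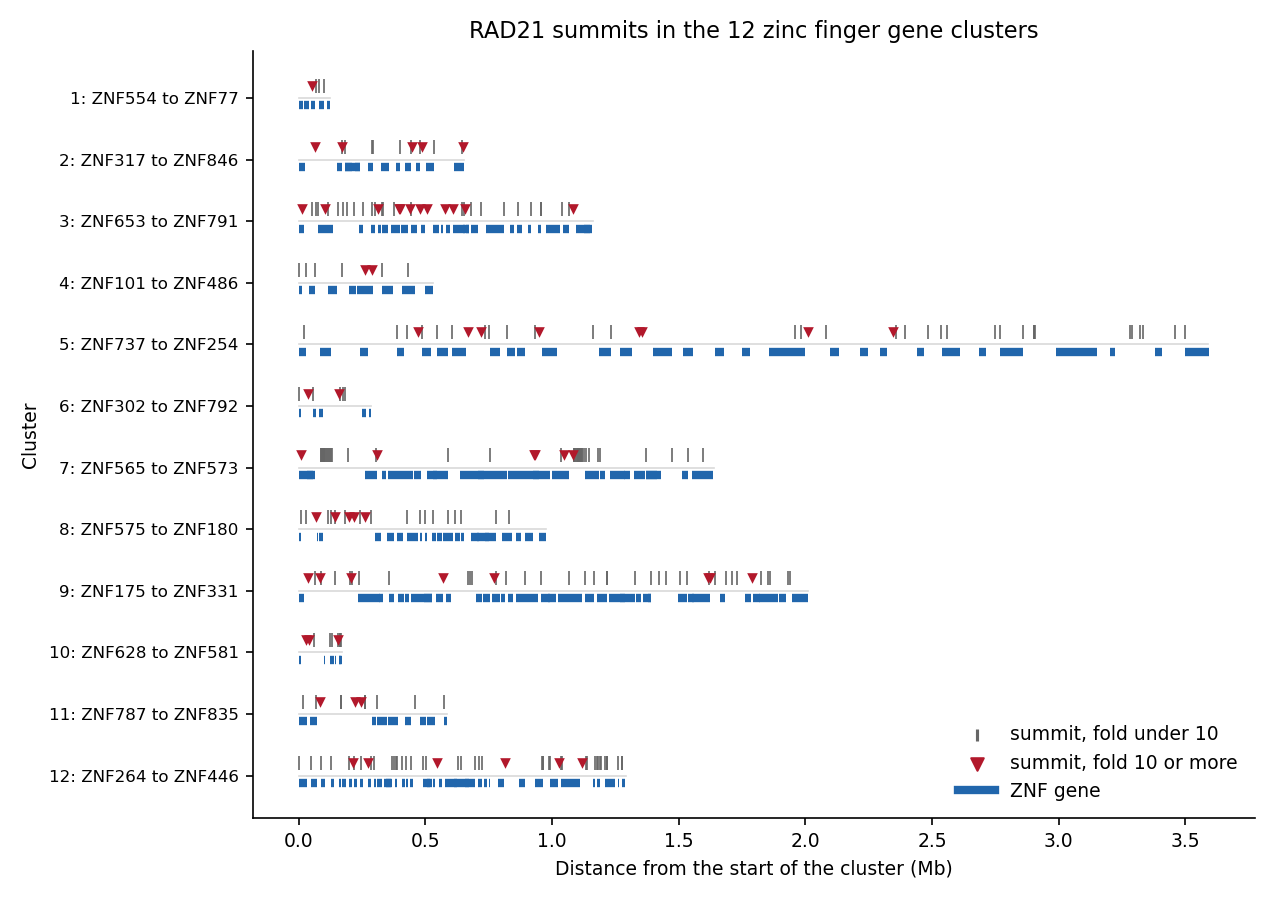
The 12 clusters drawn from their starts (Mb), with zinc finger genes as blue bars and RAD21 summits above them, as grey ticks below 10-fold and red triangles at 10-fold or more. The fifth cluster, from ZNF737 to ZNF254, shows wide stretches without a summit, and the seventh shows 2 dense runs of grey ticks.

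The clusters were not alike. The fifth, from ZNF737 to ZNF254, was the longest, at 3.59 Mb with 29 zinc finger genes and 3 other genes, and the sparsest, at 11.1 per Mb (7.95 to 15.2). The stretch of equal length before it had 43.4 per Mb. The 0.319 Mb after it, up to the gap of the assembly, had 1 summit. In this cluster 12 of the 29 genes (41.4%) had a summit and 7 had one at the 5′ end. The shares over all protein-coding genes were 75.5% and 34.3%. It held 3 of the 4 longest stretches without a summit that contain zinc finger genes. The longest measured 603.1 kb and held 4 genes, from ZNF208 to ZNF729. The next were of 376.8 kb with ZNF675 and ZNF681, and of 365.4 kb from ZNF626 to ZNF66. Only 1.93% of its 100-mers occurred elsewhere, close to the 2.21% of all clusters.

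The last cluster, from ZNF264 to ZNF446, lay at the other end of the range among the large ones. It had 43 zinc finger genes in 1.29 Mb and 38.8 summits per Mb (28.8 to 51.1), between the 23.3 per Mb of the stretch before it and the 63.3 per Mb of the 0.126 Mb after it, which held 8 summits. A summit was at 31 of its 43 genes (72.1%), near the 75.5% of all protein-coding genes. At the 5′ end 26 of the 43 had one, where the share over all protein-coding genes was 34.3%. All 8 of its exact consensus sites lay in a peak. The small cluster from ZNF628 to ZNF581 had 59.2 per Mb, on 10 summits. The eleventh, from ZNF787 to ZNF835, had 20.5 per Mb. None of its 9 genes had a summit at the 5′ end, against 34.3% of all protein-coding genes.

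**Figure D4:**
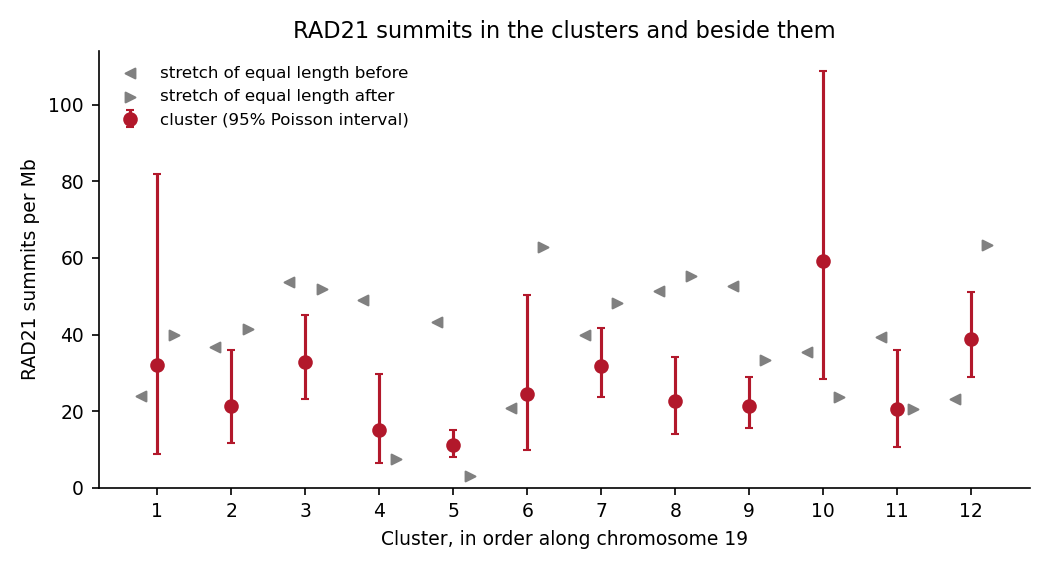
RAD21 summits per Mb in each of the 12 clusters in order along the chromosome, with exact 95% Poisson intervals, and in the stretches of the same length before and after (shorter at a gap or the chromosome end). The fifth cluster is the lowest at 11.1 per Mb, and the cluster from ZNF628 to ZNF581, with 10 summits, the highest at 59.2 per Mb.

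The seventh cluster, from ZNF565 to ZNF573, had 31.8 summits per Mb, and the Input background was 2 times the floor or more at 38.5% of its 52 summits. Most of these came from 2 arrays of copied sequence between the zinc finger genes, with 11 and 8 such summits. Between ZNF146 and ZNF566, 14 summits of 2.01-fold to 5.76-fold stood from 36269130 to 36309035, and 13 of them had copied 100-mers. Between ZNF383 and ZNF875, 15 summits of 2.35-fold to 4.48-fold stood from 37270099 to 37302877, 13 of them copied. With summits of lower background alone, the cluster had 19.6 per Mb (13.4 to 27.6), close to the eighth and ninth clusters at 20.5 and 20.4 per Mb. After the 25.4-fold summit of ZNF566, 279.5 kb with 5 zinc finger genes, from ZNF260 to ZNF567, held no summit.

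The summits nearest the edges of clusters ran from low to high. Of all chromosome 19 summits 30.4% reached 10-fold, and an excess at edges was not tested. Just outside the genes at the ends, the nearest summit was 23.8-fold at ZNF317 (3.74 kb away) and 21.9-fold at ZNF846 (3.16 kb away), the 2 ends of the second cluster. It was 23.9-fold at ZNF653 (0.658 kb away), where the third cluster begins. At other edges a near summit was low, as at ZNF180 (3.04-fold, 0.036 kb away) and ZNF628 (3.02-fold, 4.11 kb away). Further edges had none near. The nearest summit was 2.9-fold at 36.8 kb from ZNF554 and 3.91-fold at 56.7 kb from ZNF737. It was 16.2-fold at 81.6 kb from ZNF573.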

How the data were processed

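RAD21 ChIP-seq of untreated wild-type HCT116 cells was used, from the peak list of 1 library. Per the submitters' notes and methods, the authors trimmed the reads with Trimmomatic 0.39, aligned them with Bowtie2 2.5.3 to GRCh38, removed duplicates with Picard and called peaks against Input with MACS2 2.2.9.1 at a q-value of 0.05. Which Input served this library is not given in the sources used here. The deposited list gives for each peak the fold enrichment (a ratio), the −log10 of the p-value and of the q-value, and a score that was not used. Depth is not stated in the list. Fragments and background were recovered from fold and p-value, whole within 0.05 for all but 14 of 56853 peaks, and this step was tested on simulated data.

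Genes, exons and starts were those of GENCODE version 44, with the canonical transcript of each gene. In rates by zone, a base in several zones was counted once, with 5′ ends before last exons, bodies and flanks. The bins about the starts count each gene apart. Rates of the clusters, of the stretches beside them and of the rest of chromosome 19 exclude assembly gaps. No gaps were taken out of the gene zones. The CTCF consensus was sought on both strands. 100-mers were matched exactly, every 20 bp. The genes named are those with the highest summits in the gene or 5 kb, at the 5′ end and in the last exon, those with most summits, the longest without one, the ends of clusters and 7 picked for what is known of them. Genes, lists and rules were chosen with earlier results of these data known, and the comparison of site flanks, its limit of 70% and the bands of GC content were added after the values were seen. The alternatives were stricter q-values, lower background, other flanks, windows, transcripts, consensus limits and cluster distances. No tests were made, as there was 1 library. The scripts ran under Python 3.11.15 with scipy 1.17.1, matplotlib 3.10.9, pandas 2.3.3 and numpy 2.4.6, and 100-mers were counted with numba 0.67.0.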

Additional observations from a re-analysis of the deposited data

How the results depend on the processing

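Of 62 values recomputed under alternatives, 53 stayed within 1.5 times the count or within the 95% interval of the value reported, and 9 did not. At a q-value of at most 1e-05, 56 zinc finger genes had a summit at the 5′ end and 3 in the last exon, the 5′ ends had 113.4 summits per Mb, the clusters 18 per Mb, and the median fold enrichment was 6.23. A stricter threshold removes the lowest summits by its construction. The rate at 5′ ends was 324.9 per Mb within 500 bp, 105.6 per Mb within 2 kb and 100.6 per Mb about the starts of all transcripts, since the windows then cover less or more sequence around the same starts. With 1 mismatch allowed, 31.1% of the summits had the CTCF consensus. The number of clusters was 9 with gaps of up to 600 kb. Without ZNF536, a gene left out after the data were seen, bodies had 9.43 summits per Mb, and without the 2 arrays of copied sequence the clusters had 20.8 per Mb. No paired analysis was possible because 1 library was analysed. Peaks under the threshold are not in the list, so weaker binding in the genes without a summit was not detectable here.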
